A study of Mus musculus with 12 samples.

Results

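The Adgre genes encode a small family of adhesion G protein-coupled receptors of myeloid cells, among them F4/80, the antigen by which mouse macrophages are most often recognized. The 3 members, Adgre1 (F4/80, ENSMUSG00000004730), Adgre4 (also called Emr4 or FIRE, ENSMUSG00000032915) and Adgre5 (CD97, ENSMUSG00000002885), were taken by mouse gene symbol from the 56953 genes of the bone marrow tables, of which 42933 had a count in any library. All 3 had counts in all 12 libraries and passed the filter on low values in every comparison. By TPM, Adgre1 led in both macrophage groups, Adgre5 in Ly6Chi monocytes and Adgre4 in Ly6Clo monocytes.

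The libraries are poly(A) RNA-seq of myeloid cells sorted from the bone marrow of 8-week-old female C57BL/6J mice carrying Rank cre/+;R26.eYFP fl/+, with 3 libraries in each of 4 groups. In these mice Cre is expressed from the Rank locus and removes a stop before the eYFP reporter, so that eYFP stays on in the descendants of cells that once expressed Cre. The study uses eYFP+ macrophages as the embryonic and eYFP- macrophages as the adult-derived population, and the monocytes were separated into Ly6Chi and Ly6Clo cells. The eYFP- cells are defined only by the lack of the reporter, so cells of embryonic origin that escaped recombination would fall among them. Macrophages were enriched with an antibody to F4/80 and gated as F4/80+, CD206+ and VCAM1+ cells, and monocytes were gated as CD11b+ cells on a plot against F4/80 and told from eosinophils by scatter. The antibody reads the Adgre1 protein, so a difference in Adgre1 between macrophages and monocytes is a check of the gate. No member took part in the split by eYFP or by Ly6C.

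Adhesion receptors of this family carry EGF-like repeats on a long extracellular stalk, which in most adhesion receptors is cut from the membrane-spanning part during synthesis and stays bound to it. F4/80 marks resident macrophages of most mouse tissues and is lower on monocytes, and no ligand is firmly established for it. EMR4 is restricted to myeloid cells of the mouse, and the human gene no longer makes a full receptor. CD97 is found on most leukocytes, binds CD55 (decay-accelerating factor), CD90 (Thy1) and integrins, and signals through G proteins.

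Depth was 26390927 to 48618187 counts per library, with 16434 to 27634 genes detected. Ly6Clo replicate 2 was the shallowest, had the fewest detected genes and, with eYFP+ replicate 1, held fewer reads of GC-rich transcripts, so results that rest on these libraries are given with and without them. The transcripts of the sorting antigens followed the labels: Vcam1 was 8960 to 14400 TPM in macrophages and 14.4 to 90.2 in monocytes, and Ly6c2 was 5810 to 6960 TPM in Ly6Chi monocytes and 32.4 to 77.5 in Ly6Clo monocytes. TPM is the authors' level of a transcript scaled for its length and for library size, and it is used below to compare genes with each other, and normalized counts are used to compare groups. A difference is called where DESeq2's adjusted p over all genes tested is under 0.05. In bulk libraries, fewer cells of a type and less RNA per cell cannot be told apart.

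Of the 3 members, only Adgre4 had a promoter in the RefSeq table used here, so only this promoter is printed. Its 300 bases run from 250 before to 50 after the annotated start, at chr17:55749734-55750033 on the plus strand of GRCm38.p6 (the counts were made on GRCm39, so these coordinates hold for the reference only).
Adgre4: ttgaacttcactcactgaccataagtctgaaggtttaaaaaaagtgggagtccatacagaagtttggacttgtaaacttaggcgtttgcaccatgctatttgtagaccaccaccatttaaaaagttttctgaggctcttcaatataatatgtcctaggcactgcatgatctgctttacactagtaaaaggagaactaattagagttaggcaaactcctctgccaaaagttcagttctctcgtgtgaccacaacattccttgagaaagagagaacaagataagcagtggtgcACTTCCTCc
The capitals mark a match on the minus strand to GAGGAAGT, a motif of the myeloid factor PU.1 and other ETS factors, which lies 42 bases after the annotated start. Both strands were searched for 4 motifs. GAGGAAGT is present in 3.20% of the 32817 promoters of the same length. A match to TTGCNNAA, the C/EBP motif, begins 46 bases before the start and occurs in 10.8% of promoters. The window holds neither AAAGGTCA, the NR4A motif (1.51% of promoters), nor TATAAA, the TATA box (13.6%). Adgre4 and Adgre1 lie on the same chromosome, 17, with 62 protein-coding genes between them in the RefSeq annotation, whereas Adgre5 lies on another chromosome.

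Adgre1, which encodes F4/80, was the member with the highest level in macrophages. In eYFP+ macrophages it was 1984, 1301 and 1413 TPM in replicates 1 to 3, and in eYFP- macrophages 1184, 1193 and 1232 TPM. Ly6Chi monocytes had 247, 233 and 276 TPM, and Ly6Clo monocytes 549, 410 and 569 TPM. Thus 6 macrophage libraries lay above all 6 monocyte libraries, and all Ly6Clo libraries lay above all Ly6Chi libraries. The group means were 1566 ± 366 TPM in eYFP+ macrophages, 1203 ± 25.9 in eYFP- macrophages, 509.5 ± 86.6 in Ly6Clo monocytes and 252 ± 22.4 in Ly6Chi monocytes (SD, n = 3 each). By TPM it ranked between places 56 and 89 of all genes in the macrophage libraries.

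**Figure D1:**
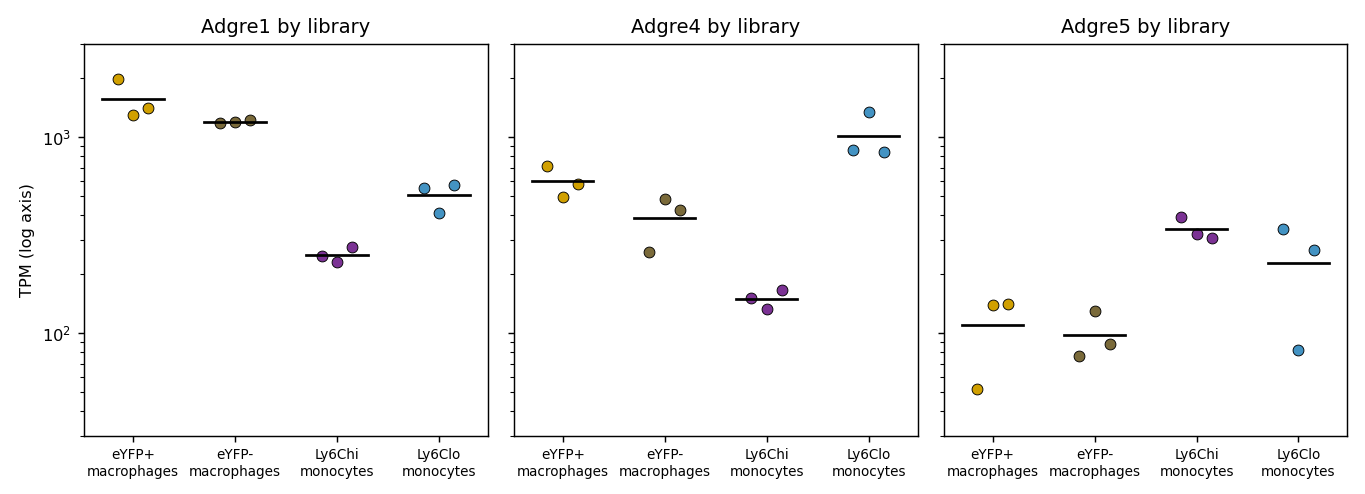
TPM (log axis) of Adgre1, Adgre4 and Adgre5 in each of the 12 libraries, replicates 1 to 3 from left to right within a group, with the group mean as a horizontal line. Adgre1 is highest in both macrophage groups, Adgre4 in Ly6Clo monocytes and Adgre5 in Ly6Chi monocytes, and the low Adgre5 point of Ly6Clo monocytes (81.7 TPM) is replicate 2.

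Between the macrophage groups no difference in Adgre1 was detected. Its log2 fold change, eYFP+ minus eYFP-, was 0.43 ± 0.28 (SE), with a 95% interval of -0.12 to 0.99 (DESeq2 adjusted p = 0.815). The TPM of the groups did not overlap, but the normalized counts did, at 80032 to 139025 in eYFP+ and 66789 to 80240 in eYFP- macrophages. Without eYFP+ replicate 1, the highest library, the log2 fold change was 0.13. The interval thus reaches from just below 0 to almost 1 on the log2 scale.

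Between the monocyte groups Adgre1 was higher in Ly6Clo cells, with 34000 ± 4713 normalized counts against 16912 ± 1531 in Ly6Chi cells (SD, n = 3 each). The log2 fold change, Ly6Chi minus Ly6Clo, was -1.01 ± 0.28 (DESeq2 adjusted p = 0.00805), a 2.01-fold higher level in Ly6Clo monocytes, and the libraries did not overlap. This call is close to the threshold. It was lost with edgeR's quasi-likelihood test (adjusted p = 0.0504), in a DESeq2 fit of the 6 monocyte libraries alone (adjusted p = 0.0812), and in DESeq2 without Ly6Chi replicate 1 (0.0619), Ly6Chi replicate 2 (0.0746) or Ly6Clo replicate 3 (0.0577), while the log2 fold change stayed between -1.11 and -0.91 over all alternatives.

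As a check of the gate, Adgre1 was 3.61-fold higher in macrophages than in monocytes (log2 fold change 1.85 ± 0.20, DESeq2 adjusted p = 8.59e-19), and higher than in each monocyte group for each macrophage group. The log2 fold change was 2.57 ± 0.28 for eYFP+ macrophages and 2.14 ± 0.28 for eYFP- macrophages against Ly6Chi monocytes, and 1.57 ± 0.28 and 1.13 ± 0.28 against Ly6Clo monocytes, each past the threshold. The order of the 4 groups was thus eYFP+, eYFP-, Ly6Clo and Ly6Chi, and only the eYFP+ and eYFP- neighbours did not differ beyond their spread in the main test.

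Adgre4, the EMR4 receptor, followed another order, with its highest levels in Ly6Clo monocytes. These had 864, 1346 and 840 TPM, against 151, 133 and 167 TPM in Ly6Chi monocytes. The eYFP+ macrophages had 717, 498 and 580 TPM and the eYFP- macrophages 262, 484 and 424 TPM. No 2 groups overlapped, although the lowest eYFP+ library (498 TPM) was close to the highest eYFP- library (484 TPM). The means were 1017 ± 285 TPM in Ly6Clo monocytes, 598 ± 110.5 in eYFP+ macrophages, 389.9 ± 115 in eYFP- macrophages and 151 ± 17.0 in Ly6Chi monocytes (SD, n = 3 each).

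The monocyte difference in Adgre4 was the largest among the members. Its log2 fold change, Ly6Chi minus Ly6Clo, was -2.77 ± 0.34 (DESeq2 adjusted p = 6.96e-14), a 6.80-fold higher level in Ly6Clo cells. It kept its call under every alternative tried, with values between -2.91 and -2.46. Ly6Clo replicate 2, which held more reads of GC-poor transcripts, was the highest library; without it the log2 fold change was -2.46. The longest Adgre4 transcript has a GC content of 39.2%, and a curve fitted over GC content was 0.37 (log2) at that content in replicate 2, against -0.10 and -0.23 in replicates 1 and 3.

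Of the 3 members, 0 were called between the macrophage groups, where 2.07% of all genes tested were called. Adgre4 came nearest, with 41313 ± 11264 normalized counts in eYFP+ and 25592 ± 5627 in eYFP- macrophages (SD, n = 3 each). Its log2 fold change was 0.69 ± 0.34, with a 95% interval of 0.03 to 1.35, an unadjusted DESeq2 p of 0.0411 and an adjusted p of 0.520. Without eYFP+ replicate 1, the highest of these libraries, it was 0.45. All eYFP+ libraries lay above all eYFP- libraries in Adgre4, but the share of all genes that separate in this way was not counted. Adgre1 and Adgre4 were higher in eYFP+ in 3 of 3 same-numbered pairs. Over all genes tested the Adgre4 difference did not pass, and edgeR called none of the members either. Between the monocyte groups 2 of the 3 members were called, both lower in Ly6Chi cells, where 8.82% of all genes tested were called.

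Compared across cell types, Adgre4 did not separate macrophages from monocytes as classes. The log2 fold change, macrophages minus monocytes, was 0.19 ± 0.24 (95% interval -0.27 to 0.66, DESeq2 adjusted p = 0.581), and the monocyte libraries lay on both sides of the macrophage libraries. The arithmetic means went the other way, at 33452 normalized counts in macrophages and 42506 in monocytes, since the fold change averages the groups on the log scale. Against Ly6Chi monocytes Adgre4 was higher by 1.92 ± 0.34 (log2) in eYFP+ macrophages (DESeq2 adjusted p = 1.82e-07) and by 1.23 ± 0.34 in eYFP- macrophages (adjusted p = 0.00194). Against Ly6Clo monocytes its log2 fold change was -1.53 ± 0.34 in eYFP- macrophages (DESeq2 adjusted p = 6.25e-05) and -0.84 ± 0.34 in eYFP+ macrophages (adjusted p = 0.0488). The last call lies at the threshold: edgeR gave an adjusted p of 0.0505, and DESeq2 without Ly6Clo replicate 2 gave -0.59 with an adjusted p of 0.128. In all it was lost in 8 of the 14 alternatives that left out no single library and in 8 of the 12 that left out 1, with adjusted p up to 0.258. The latter 8 were the fits without eYFP+ replicate 2 (DESeq2 adjusted p = 0.196) or 3 (0.181), eYFP- replicate 2 (0.0639) or 3 (0.0799), Ly6Clo replicate 2, and each Ly6Chi replicate (0.0651 to 0.0722).

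Adgre5, which encodes CD97, ran opposite to Adgre1 and was highest in Ly6Chi monocytes. The libraries of Ly6Chi monocytes had 394, 323 and 306 TPM and those of Ly6Clo monocytes 341, 81.7 and 266 TPM. In eYFP+ macrophages Adgre5 was 51.8, 139 and 141 TPM, and in eYFP- macrophages 76.7, 130 and 88.4 TPM. All 3 Ly6Chi libraries lay above all 6 macrophage libraries, whereas Ly6Clo replicate 2 fell among the macrophages. The means were 341 ± 46.9 TPM in Ly6Chi monocytes, 229 ± 133 in Ly6Clo monocytes, 111 ± 50.8 in eYFP+ macrophages and 98.4 ± 28.1 in eYFP- macrophages (SD, n = 3 each).

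Adgre5 was 2.90-fold lower in macrophages than in monocytes, with a log2 fold change of -1.54 ± 0.34 (DESeq2 adjusted p = 4.53e-05). Adgre1 was also called, in the other direction, and its call is a check of the gate. These were 2 of 3 members, where 36% of all genes tested were called. Without Ly6Clo replicate 2 the log2 fold change of Adgre5 was -1.78, and it stayed past the threshold under every alternative. Against Ly6Chi monocytes alone, it was -1.75 ± 0.48 for eYFP+ macrophages (DESeq2 adjusted p = 0.00189) and -1.93 ± 0.48 for eYFP- macrophages (adjusted p = 0.000554). Against Ly6Clo monocytes it was -1.14 ± 0.48 (DESeq2 adjusted p = 0.0656) and -1.33 ± 0.48 (adjusted p = 0.0266), and without Ly6Clo replicate 2 it was -1.59 (9.49e-05) and -1.77 (1.16e-05). The call for eYFP- macrophages was lost under 8 of the 14 alternatives that left out no single library, edgeR (adjusted p = 0.0582) and the replicate block in DESeq2 (0.0826) among them, with adjusted p up to 0.369. It was also lost without eYFP- replicate 1 (DESeq2 adjusted p = 0.107) or 3 (0.106) and without Ly6Clo replicate 1 (0.148) or 3 (0.102).

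Within each cell type no difference in Adgre5 was detected. Between the monocyte groups the log2 fold change, Ly6Chi minus Ly6Clo, was 0.60 ± 0.48 (95% interval -0.35 to 1.55, DESeq2 adjusted p = 0.521), and it was 0.22 without Ly6Clo replicate 2. Between the macrophage groups the log2 fold change, eYFP+ minus eYFP-, was 0.19 ± 0.48 (95% interval -0.76 to 1.14, DESeq2 adjusted p = 0.9997). It changed sign, to -0.01, without eYFP+ replicate 2 and was 0.49 without eYFP+ replicate 1. The order of the 4 groups was Ly6Chi, Ly6Clo, eYFP+ and eYFP-, and no neighbours in it differed beyond their spread in the main test.

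**Figure D2:**
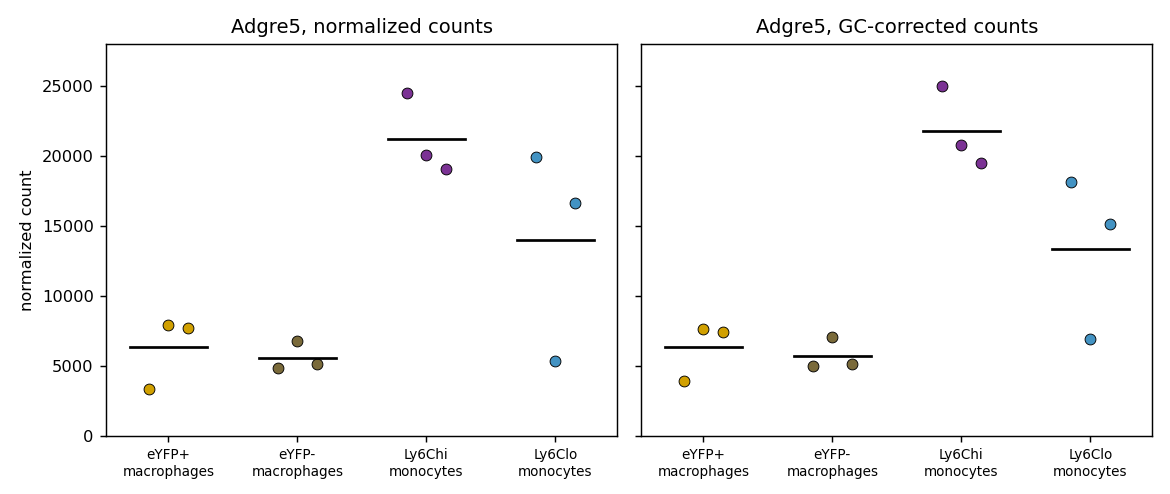
Adgre5 in the 12 libraries as normalized counts (left) and as the same counts divided by a curve over transcript GC content (right), with the group mean as a horizontal line. Ly6Clo replicate 2 is at 5354 before and 6889 after the correction and stays below the other Ly6Clo libraries on both scales, as does eYFP+ replicate 1 below the other eYFP+ libraries.

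The lowest Adgre5 value of the Ly6Clo and of the eYFP+ libraries lay in the library of each group that was poor in GC-rich reads. The cause of these low values was not tested. The longest Adgre5 transcript has a GC content of 53.4%, the highest of the members (47.2% for Adgre1), and the fitted curve was -0.32 (log2) in Ly6Clo replicate 2 and -0.17 in eYFP+ replicate 1 at that content. After the correction Ly6Clo replicate 2 had 6889 counts, against 18104 and 15116 in replicates 1 and 3. With the GC correction the log2 fold change between macrophages and monocytes was -1.51 (DESeq2 adjusted p = 1.92e-06).

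The counts of Adgre1 and Adgre4 have no near copy to share reads with, since 0 of the 3208 and 0 of the 3461 31-base words of their longest transcripts occur in another gene. In the GENCODE M21 annotation, exons of Adgre5 overlap those of Ddx39, an RNA helicase gene on the opposite strand, and 568 of its 2970 words (19.1%) also lie in Ddx39 transcripts. Reads from that stretch could not be assigned to 1 gene without strand. The authors counted unambiguously aligned read pairs and do not state how pairs over exons of more than 1 gene were handled. Adgre5 counts may therefore leave part of the transcript out or include reads of Ddx39. Ddx39 itself was 40.2 to 48.2 TPM in eYFP+ macrophages, 58.4 to 80.4 in eYFP- macrophages, 37.9 to 48.1 in Ly6Chi monocytes and 50.2 to 106 in Ly6Clo monocytes, with its highest value in Ly6Clo replicate 2. It was not called in any of the 7 comparisons, and its part in the Adgre5 values was not tested.

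Set beside each other per length, the leading member was 1 gene in both macrophage groups and another in each monocyte group. Adgre1 made up 68.5 ± 3.16% of the summed TPM of the 3 genes in eYFP+ macrophages and 71.5 ± 5.93% in eYFP- macrophages (SD, n = 3 each), and the shares of these groups overlapped. In Ly6Chi monocytes Adgre5 held 45.8 ± 4.58%, Adgre1 33.9 ± 2.88% and Adgre4 20.2 ± 1.78%. In Ly6Clo monocytes Adgre4 held 57.5 ± 13.6%, with 49.3% and 50.1% in replicates 1 and 3 and 73.2% in replicate 2. The same member led in all 3 libraries of each group, and also when shares were taken from CPM (counts scaled to library size alone) in place of TPM. The share of Adgre5 ranged from 1.88% in eYFP+ replicate 1 to 49.8% in Ly6Chi replicate 1.

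**Figure D3:**
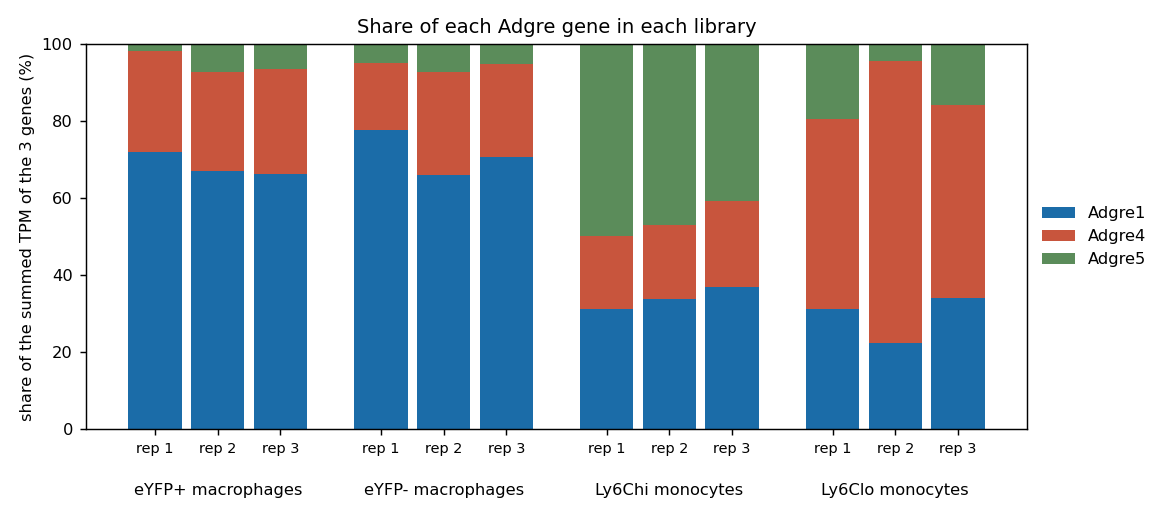
Share (%) of Adgre1, Adgre4 and Adgre5 in the summed TPM of the 3 genes, as 1 stacked bar for each of the 12 libraries. Adgre1 takes 66.0% to 77.8% of each macrophage bar, Adgre5 40.8% to 49.8% of each Ly6Chi bar and Adgre4 49.3% to 73.2% of each Ly6Clo bar.

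The summed level also differed. It was 1938 to 2753 TPM in eYFP+ macrophages, 1522 to 1807 in eYFP- macrophages, 689 to 792 in Ly6Chi monocytes and 1675 to 1838 in Ly6Clo monocytes. All 3 Ly6Chi libraries thus lay below all other libraries, and the Ly6Clo libraries overlapped the eYFP- macrophages in their sum while differing in the leading member.

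The comparisons across cell types share libraries with each other and are therefore given side by side. For eYFP+ macrophages against Ly6Chi monocytes all 3 members were called, where 28.7% of all genes tested were called. Against Ly6Clo monocytes eYFP+ macrophages had 2 members called, with a background of 26.1%, 1 of them Adgre4, whose call 16 of 26 alternatives lost. For eYFP- macrophages all 3 members were called against Ly6Chi monocytes (background 25.5%) and against Ly6Clo monocytes (background 26.8%), the last count resting on the Adgre5 call that 12 of 26 alternatives lost. In each of these comparisons Adgre1 was among the called members and higher in macrophages, which is a check of the gate. Adgre5 had a negative log2 fold change in all 4, which did not pass the threshold between eYFP+ macrophages and Ly6Clo monocytes (-1.14), and Adgre4 was above the Ly6Chi and below the Ly6Clo level. The median log2 fold change of all genes tested was between 0.01 and 0.12 in the 7 comparisons, small beside the changes of the called members.

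**Figure D4:**
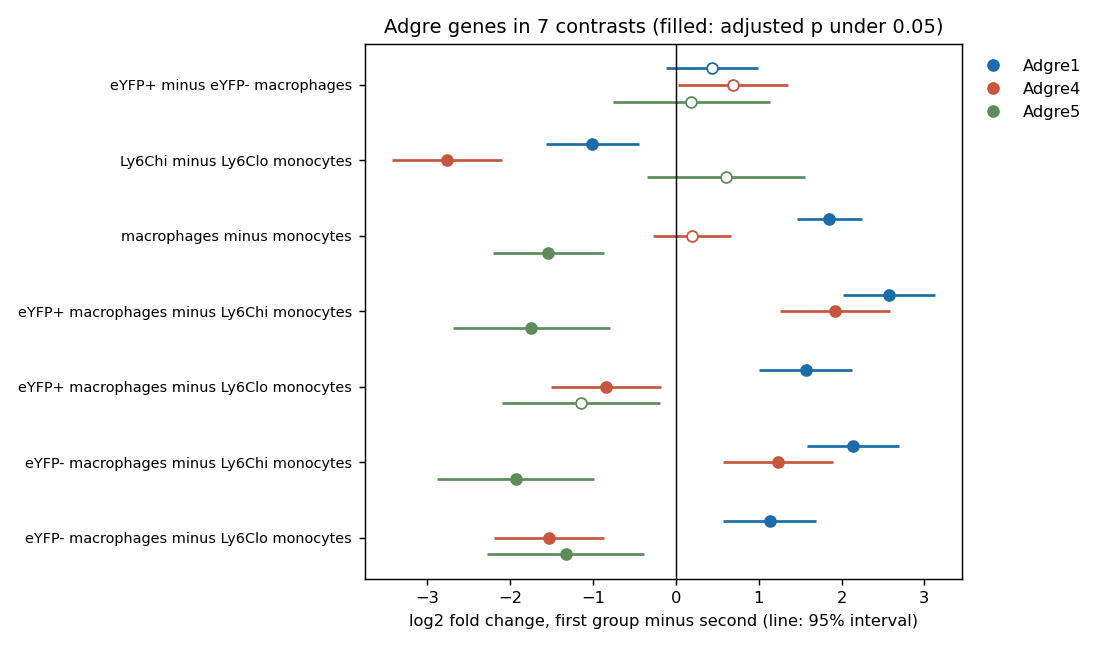
Log2 fold change of the 3 members in the 7 comparisons (first group minus second), with 95% intervals as lines and filled points for a DESeq2 adjusted p under 0.05. In the uppermost row all points are open, Adgre1 lies right of 0 in all 5 comparisons of macrophages with monocytes, and Adgre4 changes side between Ly6Chi and Ly6Clo monocytes.

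The genes most like each member were ranked by Pearson's r over the 12 libraries among 10831 genes, as a description, since the libraries come in 4 groups and share depth and base composition. Nearest to Adgre1 were Tcta (r = 0.988), Pilrb1 (0.987), Abcg3 (0.986), Lipa (0.982) and Snap47 (0.980). Lipa encodes lysosomal acid lipase, which frees cholesterol from lipoproteins taken up by the cell, and had 76500 mean normalized counts in eYFP+ and 54190 in eYFP- macrophages, against 10730 in Ly6Chi and 16360 in Ly6Clo monocytes. Nearest to Adgre4 were Rhoq (0.983), Gpcpd1 (0.966), Slamf9 (0.965), Rcbtb2 (0.961) and Cd300c2 (0.959). Slamf9, a receptor of the SLAM family, had 3755 mean normalized counts in Ly6Clo and 223 in Ly6Chi monocytes, with 1537 in eYFP+ and 926 in eYFP- macrophages. Nearest to Adgre5 were Tnfaip8l2 (0.986), Csf2rb (0.984), Plod3 (0.984), Map4k2 (0.980) and Tnfrsf1b (0.979). Csf2rb encodes the shared beta chain of the GM-CSF and IL-3 receptors, and Tnfrsf1b a receptor for TNF.

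With Spearman's rank correlation in place of r, the 5 nearest genes shared 1 name for Adgre1, 4 for Adgre4 and 0 for Adgre5, so the neighbours of Adgre4 depended least on the measure. Between members, r was 0.45 for Adgre1 and Adgre4, -0.83 for Adgre1 and Adgre5 and -0.45 for Adgre4 and Adgre5, over the same 12 libraries.

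The other adhesion G protein-coupled receptors all had lower mean levels than the members. Of 27 listed genes, 20 were tested, and the highest mean TPM over the 12 libraries was 12.2 for Adgrg1, 7.18 for Adgrg3 and 4.08 for Adgrl4. These 3 genes were the ones called between the macrophage groups, all lower in eYFP+ cells, where 2.07% of all genes tested were called, and the median log2 fold change of the 20 tested genes was -0.77, against 0.05 over all genes. Adgrg1 (GPR56, known from cytotoxic lymphocytes and hematopoietic stem cells) was 2.88, 4.05 and 3.30 TPM in eYFP+ and 22.6, 49.8 and 47.8 TPM in eYFP- macrophages (log2 fold change -3.50 ± 0.59, DESeq2 adjusted p = 1.38e-06). Adgrg3 (GPR97, known from granulocytes) was 0.156, 2.37 and 0.518 TPM against 5.13, 14.3 and 9.04 TPM (-3.19 ± 0.71, DESeq2 adjusted p = 0.000985). Adgrl4 (ELTD1, known from endothelium) was 0.0463, 1.36 and 0.318 TPM against 6.73, 18.4 and 10.8 TPM (-4.36 ± 0.77, DESeq2 adjusted p = 8.34e-06). The groups did not overlap for any of them. The call of Adgrg1 was kept by edgeR, while those of Adgrg3 and Adgrl4 were not, so edgeR called 1 gene of the list.

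Summed markers of T and NK cells, neutrophils, erythroid cells, dendritic cells and Ly6Chi monocytes lay lower in all eYFP+ than in all eYFP- macrophage libraries. The share of all genes that separate in this way was not counted. Of single markers, 0 of 8 T and NK cell, 4 of 10 neutrophil and 1 of 7 erythroid markers were called, all lower in eYFP+, against 2.07% of all genes tested. Also called lower in eYFP+ were 2 of 5 tested Ly6Chi monocyte markers and 2 of 8 Ly6Clo monocyte markers. Ly6Chi markers summed to 6.65 to 7.83 TPM in eYFP+ and 9.79 to 118 in eYFP- macrophages, while the Ly6Clo sums overlapped (696 to 1190 and 715 to 867). The summed TPM of 8 T and NK cell markers was 6.47 to 19.4 in eYFP+ and 26.9 to 58.6 in eYFP- macrophages, that of 10 neutrophil markers 123 to 209 and 241 to 2620, and that of 7 erythroid markers 8760 to 14300 and 22100 to 34900. The 6 dendritic cell markers summed to 3.95 to 10.2 TPM in eYFP+ and 16.6 to 31.6 in eYFP- macrophages, and 2 of them were called lower in eYFP+ cells. Flt3, a growth factor receptor of progenitors and dendritic cells, was 0.0130 to 0.947 against 8.88 to 15.3 TPM, and Xcr1, a chemokine receptor of dendritic cells, 0.0824 to 0.293 against 2.40 to 7.05 TPM. The remaining dendritic cell markers, Zbtb46, Clec9a, Siglech and Ccr9, overlapped between the macrophage groups. Flt3 was also 18.8 to 30.4 TPM in Ly6Chi monocytes. No marker of the T and NK cell and neutrophil lists was at 0 in all 3 libraries of either group, and the defining T cell genes Cd3e, Cd3d and Cd3g were at most 1.58 TPM in macrophages. Of the NK cell and cytotoxic genes of the list, Ncr1 was 0.618 to 3.88 TPM in eYFP+ and 5.10 to 11.9 in eYFP- macrophages. Klrb1c was 0.345 to 2.07 and 2.34 to 7.58 TPM, and Gzma 0 to 9.09 and 12.5 to 24.8 TPM, and none of these genes was called. In the same list Trbc2 overlapped between the groups (1.92 to 4.83 and 3.91 to 6.4 TPM). Cd3e reached higher in eYFP+ macrophages (0.137 to 0.585 and 0.0895 to 0.209 TPM). The part of other cell types in the levels of Adgrg1, Adgrg3 and Adgrl4 was not tested.

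Between the monocyte groups 3 of the 20 tested adhesion receptors were called, where 8.82% of all genes tested were called. Adgrg1 was 0.0707, 0.292 and 0.841 TPM in Ly6Chi and 4.23, 5.72 and 4.29 TPM in Ly6Clo monocytes (log2 fold change -3.58 ± 0.61, DESeq2 adjusted p = 3.60e-07), the direction also seen for Adgre1 and Adgre4. Adgrv1, a very long receptor of hair cells and retina, was 0.0634 to 0.136 and 0.248 to 0.570 TPM (DESeq2 adjusted p = 6.06e-05). Adgrg4 was at most 0.0564 TPM in Ly6Chi libraries and had no count in Ly6Clo libraries, with an adjusted p of 0.0487 from DESeq2 that only 3 of 26 alternatives kept. Between macrophages and monocytes 7 of the 20 were called higher and 4 lower, where 36% of all genes tested were called, and edgeR called 5 in all.

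**Figure D5:**
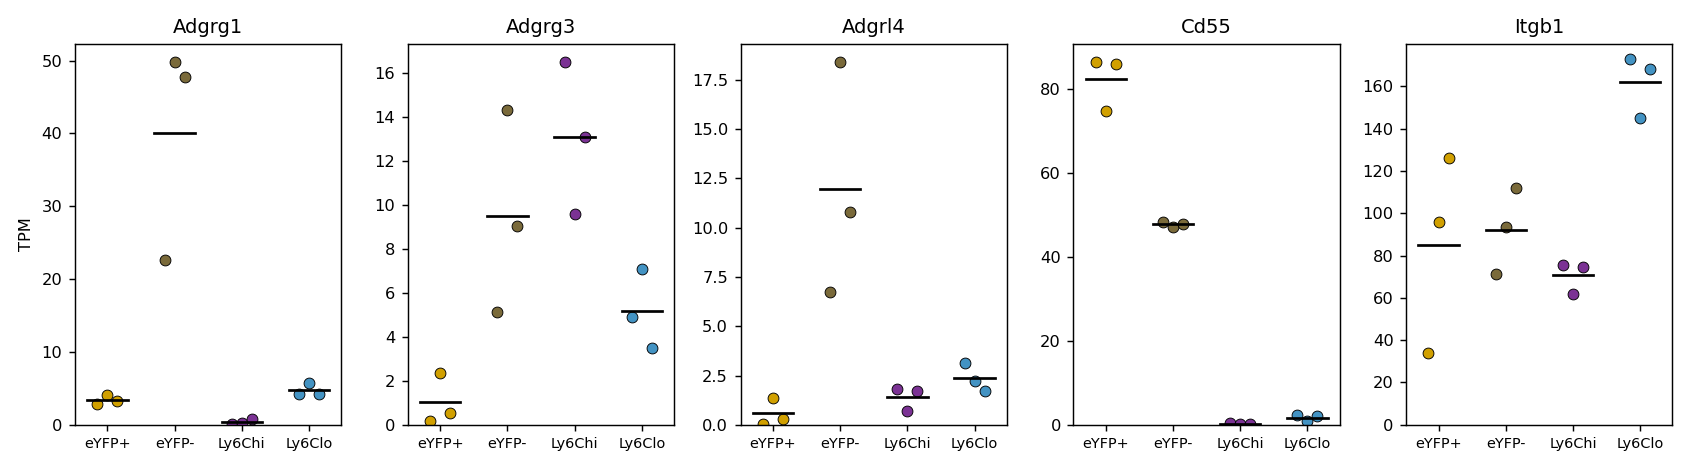
TPM (linear axes that start at 0 and differ between panels) of the adhesion receptors Adgrg1, Adgrg3 and Adgrl4 and of the CD97 binding partners Cd55 and Itgb1 in each library, with the group mean as a horizontal line. The 3 adhesion receptors are lower in eYFP+ than in eYFP- macrophages in every library, and Cd55 is at 47.0 to 86.3 TPM in macrophages and at most 2.22 TPM in monocytes.

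Among 7 binding partners of CD97, Cd55 had the widest difference between cell types. It was 86.3, 74.6 and 85.9 TPM in eYFP+ macrophages and 48.3, 47.0 and 47.8 TPM in eYFP- macrophages, against 0.424, 0.232 and 0.0924 TPM in Ly6Chi and 2.22, 0.872 and 2.04 TPM in Ly6Clo monocytes. Its log2 fold change, macrophages minus monocytes, was 6.49 ± 0.32 (DESeq2 adjusted p = 5.18e-91). Of the 7 partners, 3 were called higher and 2 lower in macrophages, where 36% of all genes tested were called, and edgeR called 3 in all. The lower ones were the integrin chains Itgb3 (log2 fold change -3.43, DESeq2 adjusted p = 1.28e-10) and Itga5 (-1.78, adjusted p = 0.0142), the direction also seen for Adgre5. Between the macrophage groups, where 2.07% of all genes tested were called, 0 of the 7 partners were called by DESeq2, Cd55 included (log2 fold change 0.82 ± 0.41, DESeq2 adjusted p = 0.532). Cd55 was the 1 partner with an unadjusted p under 0.05, and edgeR also called 0. Between the monocyte groups, with a background of 8.82%, 2 of the 7 were called: Cd55 (-2.74 ± 0.48, DESeq2 adjusted p = 1.13e-06) and Itgb1, the integrin beta 1 chain (-1.19 ± 0.39, adjusted p = 0.0317), both lower in Ly6Chi cells, and the call of Itgb1 was lost with edgeR. Itgb1 had the highest mean TPM of the partners (102.5), followed by Cd55 (32.98) and the integrin chain Itgav (20.9).

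The other markers place the Adgre values among the cells the gates could hold. Of 12 macrophage markers, which include Vcam1 and Mrc1 (CD206) of the gate, the sum was 38500 to 53700 TPM in macrophages and 1780 to 5050 in monocytes. Eosinophils also carry F4/80, and the summed TPM of 8 eosinophil markers was 794 to 1180 in eYFP+ and 706 to 1610 in eYFP- macrophages, against 3.26 to 3.95 in Ly6Chi and 11.3 to 583 in Ly6Clo monocytes. In eYFP+ macrophages nearly all of it was the chemokine receptor gene Ccr3 (780 to 1170 TPM), with the granule genes Prg2 at 2.28 to 5.96 and Epx at 0.152 to 0.429 TPM and the receptor gene Il5ra at most 0.0140 TPM. In eYFP- macrophages Prg2 was 68.4 to 917 TPM, and in Ly6Clo monocytes 0 to 519 TPM. In macrophages 1 of the 6 B cell markers, Cd79b (449 to 701 TPM), made up most of the B cell sum of 462 to 702 TPM. Of the 6 dendritic cell markers the sum was at most 61.0 TPM in any library. Markers of Ly6Chi monocytes, which include Ly6c2 of the sort, summed to 11800 to 12400 TPM in Ly6Chi and 382 to 668 in Ly6Clo libraries. Those of Ly6Clo monocytes summed to 580 to 741 and 3780 to 4560 TPM. The 10 neutrophil markers, several of which monocytes also express, summed to 15700 to 23900 TPM in Ly6Chi and 6750 to 16000 in Ly6Clo libraries. Of these, 3 were called higher and 1 lower in Ly6Chi cells, where 8.82% of all genes tested were called. Ly6g (2.31 to 4.17 and 19.8 to 43.2 TPM) and Retnlg (0.862 to 27.6 and 30.6 to 97.2 TPM) were higher in the Ly6Clo libraries. The part of these other cells in the Adgre levels was not tested.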

How the data were processed

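Poly(A) RNA of sorted cells was amplified as full-length cDNA, without molecular identifiers, and sequenced as read pairs. Per the labels and the study's methods, the authors used bcl2fastq 2.20.0.422, trimming and error correction, SortMeRNA and segemehl on GRCm39 with Ensembl 109. They then used featureCounts on exons with unambiguously aligned pairs, and deposited raw counts, TPM and variance-stabilised values on a log2-like scale (DESeq2). No replicates were pooled. Fold changes here come from DESeq2 1.42.0 (R 4.3.3) on the deposited counts, all 12 libraries in 1 fit, adjusted by Benjamini-Hochberg over all genes tested. Alternatives used edgeR 4.0.16, limma 3.58.1 on log2(TPM + 1) or log2(TPM + 0.1), other size factors and filters (10 counts in 3 libraries), a replicate block, a correction for GC content (known for 96.3% of genes tested), and each library left out. The scripts were tested on simulated data. Intervals are 95%. Symbols, transcript length and GC content came from GENCODE M21 (GRCm38), which matched 91.4% of gene IDs, and the promoter from RefSeq. Amino acid sequences were not used here, and 1 gene list and 1 marker gene are not reported here.

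Named were the 3 members, the 5 genes most like each (at least 50 mean normalized counts, predicted genes left out), and from each list the genes called within macrophages or within monocytes and the 3 with the highest mean TPM. The members and lists were chosen with earlier results of these data known. No source used here ties a replicate number to a mouse, so p-values measure only the spread between these libraries, which may be technical.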

Additional observations from a re-analysis of the deposited data

How the results depend on the processing

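Over the 3 members and 7 comparisons, 266 values kept their direction and side of the threshold under the alternatives other than leaving out a single library, while 21 lost the call and 4 gained it; with 1 library left out the counts were 235, 15 and 1, and 1 value changed sign. The cause of these changes was not tested. For Adgre1, Ly6Chi minus Ly6Clo, the call was lost with edgeR (log2 fold change -0.97), edgeR with a replicate block (-0.95, adjusted p = 0.0692) and the 6 libraries alone (-0.99), and leaving out 1 library gave -1.11 to -0.91. For Adgre4, eYFP+ macrophages minus Ly6Clo monocytes, it was lost with edgeR (-0.83), no independent filtering (-0.84), a replicate block in DESeq2 (-0.82, adjusted p = 0.136) or edgeR (-0.81), the 6 libraries alone (-0.83) and limma with a pseudocount of 1 (-0.745, with or without a filter) or 0.1 (-0.75), with -1.08 to -0.59 when 1 library was left out. For Adgre5, eYFP- macrophages minus Ly6Clo monocytes, it was lost with edgeR (-1.335), no independent filtering (-1.33), a replicate block in DESeq2 (-1.30, adjusted p = 0.0826) or edgeR (-1.30), the 6 libraries alone (-1.325) and limma (-1.02 with each pseudocount and with no filter), with -1.77 to -0.99 when 1 library was left out. For Adgre5 against Ly6Chi monocytes it was lost with limma and no filter (-1.74 for eYFP+ and -1.81 for eYFP- macrophages). For Adgre5, eYFP+ macrophages minus Ly6Clo monocytes, a call was gained with total-count size factors (-1.26), a minimum of 10 counts in 3 libraries (-1.145), the GC correction (-1.08) and without both Ly6Clo replicate 2 and eYFP+ replicate 1 (-1.28, an alternative chosen after seeing the data), with -1.59 to -0.80 when 1 library was left out. For Adgre5, eYFP+ minus eYFP- macrophages, leaving out 1 library gave -0.0088 to 0.49.

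Among the other adhesion receptors, the 3 calls between the macrophage groups became 1 with edgeR and 0 with edgeR and a replicate block. Their 3 calls between the monocyte groups became 1 with that block and 1 in each limma fit. Their 11 calls between macrophages and monocytes became 5 with edgeR, with and without the block, 7 with no independent filtering, 5 with limma (6 with no filter), 6 without both libraries, and 6 to 10 with 1 library left out. The CD97 partners went from 2 to 1 call between the monocyte groups with edgeR, with and without the block, with no independent filtering and in each limma fit, and ranged from 1 to 3 with 1 library left out. Between the macrophage groups they had 0 to 1 calls with 1 library left out (1, Cd55, without Ly6Clo replicate 2), and between macrophages and monocytes their 5 calls became 3 with edgeR, with and without the block, and with limma, and 3 to 5 with 1 library left out. Total-count size factors moved the median log2 fold change of all genes, eYFP+ minus eYFP-, from 0.05 to -0.06.

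Deviations of same-numbered libraries from their group means, over the 2000 genes of highest mean, correlated at 0.456, 0.332 and 0.152 between the macrophage groups and at 0.307, 0.0314 and -0.0111 between the monocyte groups. Over the 2000 genes of highest variance, the macrophage values were 0.301, 0.165 and 0.0617, and the monocyte values 0.0767, 0.00328 and -0.000638. Pairing is thus possible in both cell types, with little correlation in monocyte replicates 2 and 3. Libraries of different replicate numbers were not compared. With the replicate block in DESeq2, the log2 fold changes, eYFP+ minus eYFP-, were 0.41 for Adgre1, 0.71 for Adgre4 and 0.18 for Adgre5, none called, and the other adhesion receptors kept a count of 3 calls. Over all genes, 439 of 21195 were called in that comparison, 33 higher and 406 lower in eYFP+, against 1178 of 38784 with the block (505 higher and 673 lower), 64 of 19189 with edgeR and 24 of 19189 with edgeR and the block. The 95% intervals of Adgre5 within a cell type ran from -0.76 to 1.14 and from -0.35 to 1.55 (log2), so differences inside them could not be told from 0.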
